A study of Arabidopsis thaliana with 4 samples.

Results

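Expansins are small secreted proteins that loosen the plant cell wall, so that a cell under turgor can enlarge without its wall being digested. They are thought to weaken the contacts between cellulose microfibrils and the polysaccharides that coat them. Alpha-expansins (EXPA) are the largest branch of the family in Arabidopsis. EXPA7 and EXPA18 are known for their activity in root hairs, the tubular outgrowths of root epidermal cells, where they are used as marker genes.

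The members are the genes whose probe set on the array names exactly 1 gene, with a symbol of EXPA followed by a number. There were 10 such genes, each with 1 probe set, out of 13513 probe sets with a single gene symbol and 22746 probe sets in all. They were EXPA4, EXPA7, EXPA8, EXPA9, EXPA15, EXPA16, EXPA18, EXPA20, EXPA21 and EXPA24. The RefSeq annotation of assembly TAIR10.1 holds 24 genes with such a symbol. Another 3 of these, EXPA22, EXPA23 and EXPA25, are read only by probe sets that name several genes, and 11 have no probe set listed in the annotation used here, so they are not analysed by name. EXPA7 and EXPA18 both lie on chromosome 1, EXPA4, EXPA8 and EXPA15 on chromosome 2, EXPA16 on chromosome 3, EXPA20 on chromosome 4, and EXPA9, EXPA21 and EXPA24 on chromosome 5.

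The RNA came from whole Arabidopsis thaliana seedlings at developmental stage 1.02, grown on 1/2 MS10 medium at 80% humidity and 20 °C under days with 16 h of light. The 2 groups were the Col-0 wild type (2 arrays) and a Col-0 line in which, per the labels, CDB1 was completely knocked out (2 arrays), and the labels give no treatment for either. The title of the series names a Polycomb binding protein, Polycomb being the machinery that keeps genes silent through chromatin, and the comparison asks which transcripts differ without CDB1. CDB1 is tied to no probe set by the annotations used here, so its loss could not be checked, and the labels do not describe the allele or the number of lines. The labels do not say whether replicates were grown separately, and a p-value here reflects array-to-array spread that may be technical only.

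Each array gave 1 MAS5 signal per probe set, a linear brightness in arbitrary units, and the array medians were 47.9 to 50.6. A probe set was tested when its mean over the 4 arrays reached the 30th percentile, a brightness floor of 19.5, which kept 15924 probe sets and 8 of the 10 alpha-expansins. Genes listed for roots and for green tissue were bright on every array. PYK10, a beta-glucosidase of ER bodies on the root list, ran from 2545 to 2967. RCA, the activase of Rubisco in green tissue, ran from 2292 to 2685. Most marker genes fixed for root hairs, roots, green tissue, pollen and flowers had no named probe set, which left 1, 1, 2 and 0 tested genes for root hairs, roots, green tissue and the last list.

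The alpha-expansins spread over a wide range of signals, and the root hair members sat in its middle. EXPA4 was brightest, with 328.2 and 234.4 in the 2 wild type samples against 218.1 and 220.1 without CDB1. EXPA15 read 126.5 and 111 in wild type against 73.9 and 102.4 in the knockout, and EXPA8 read 111.3 and 78.7 against 92.5 and 100.1. These were the only members to pass a signal of 70 on any array. By mean signal EXPA18 ranked 4 and EXPA7 ranked 6 of the 10.

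EXPA18 read 51.0 and 49.5 in wild type against 58.5 and 60.9 in the knockout. EXPA9 read 44.6 and 52.8 against 45.4 and 53.8. EXPA7 read 28.7 and 50.3 in wild type and 55.9 on each knockout array. The ranges of EXPA9 and EXPA7 over the arrays overlapped, as did those of EXPA18 and EXPA9. EXPA20 read 28.7 and 40.0 against 41.5 and 48.6, and EXPA16 read 34.8 and 38.0 against 27.4 and 22.7. Of the 9 pairs of neighbours in this order, 6 overlapped. The breaks came after EXPA4, after EXPA8 and after EXPA16. Probe sets differ in how strongly they bind their transcript, so the order is one of signals and not of transcript amounts.

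**Figure D1:**
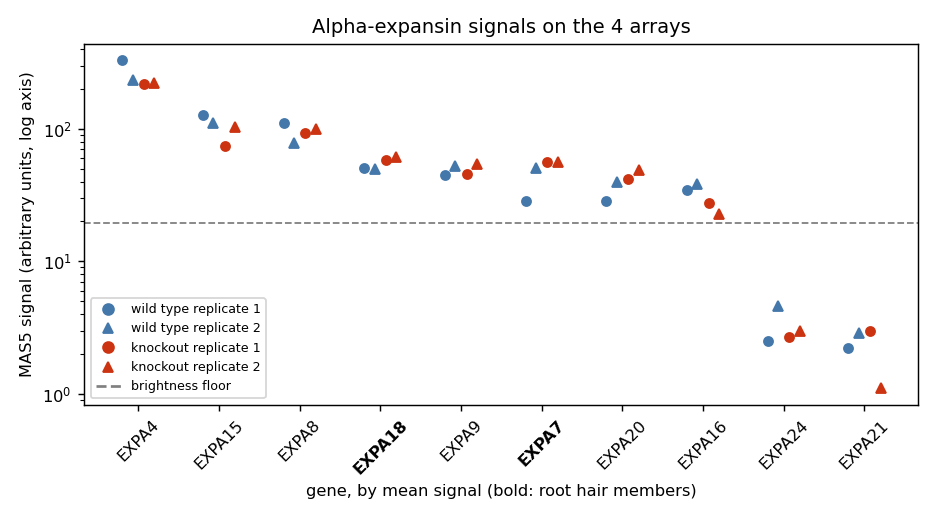
MAS5 signal (arbitrary units, log axis) of each alpha-expansin on the 2 wild type arrays (blue) and the 2 knockout arrays (red), ordered by mean signal, with the brightness floor of 19.5 as a dashed line. EXPA18 and EXPA7 hold ranks 4 and 6, and EXPA24 and EXPA21 lie below the floor on every array.

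EXPA24 and EXPA21 stood far below the rest. EXPA24 read 2.5 and 4.6 in wild type against 2.7 and 3.0 in the knockout, and EXPA21 read 2.2 and 2.9 against 3.0 and 1.1. Both lay below the brightness floor on all 4 arrays, and the groups overlapped for both, so no change is given for them. In TAIR10.1 they are the first and last of 6 genes in a row on chromosome 5, all of them alpha-expansins, with EXPA22, EXPA23, EXP26 and EXPA25 between them. These inner genes are read by 2 shared probe sets, one for EXPA22 with EXP26 and one for EXPA23 with EXPA25. The 4 probe sets of this stretch read between 0.5 and 4.6 on all arrays, so the whole row of genes was near the bottom of the scale in both groups. A low signal can come from a weak probe set as well as from a rare transcript, and the detection calls are not used here.

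Among the 8 members bright enough to test, none passed the test between knockout and wild type, and the root hair members read higher in the knockout while the others were split. Groups were compared with limma over all 15924 probe sets on log2(signal + 16), with Benjamini-Hochberg adjustment and a threshold of 0.05. The adjusted p of the members ran from 0.917 to 0.998. Over all tested probe sets 51 passed, or 0.32%, so a count of 0 among 8 does not set the family apart. At an unadjusted limma p under 0.05 there was 1 member, EXPA15, against 5.24% of all tested probe sets. In the root hair pair both log2 fold changes were above 0, with a median of 0.30. In the other 6 tested members 3 were above and 3 below 0, with a median of -0.15. The median over all tested probe sets was -0.015.

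EXPA7 had the largest rise in value among the members, but it rested on a single array. Its signal was 39.5 ± 15.3 (SD, n = 2) in wild type against 55.9 ± 0 in the knockout, where both arrays gave the same value. The log2 fold change was 0.40 (SE 0.194, 95% confidence interval -0.03 to 0.83, limma adjusted p = 0.983). Wild type replicate 1, at 28.7, stood apart from the other 3 arrays, which lay between 50.3 and 55.9. Without that array the log2 fold change was 0.12, and without wild type replicate 2 it was 0.69.

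EXPA18 differed less but more evenly. Its signal was 50.3 ± 1.06 (SD, n = 2) in wild type against 59.7 ± 1.70 in the knockout, and the groups did not overlap. The log2 fold change was 0.19 (SE 0.147, 95% confidence interval -0.13 to 0.52, limma adjusted p = 0.998). With 1 array left out it stayed between 0.17 and 0.22. In bulk seedlings a change in the number of root hair cells and a change in RNA per cell cannot be told apart.

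EXPA20, outside the root hair pair, had a pattern over the arrays like that of EXPA7. It was lowest on wild type replicate 1, and the lower knockout value lay above the higher wild type value. Its log2 fold change was 0.28 (SE 0.174, 95% confidence interval -0.10 to 0.67, limma adjusted p = 0.998), 0.12 without wild type replicate 1 and 0.45 without wild type replicate 2. A reading above wild type was therefore not confined to EXPA7 and EXPA18.

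For EXPA15, EXPA16 and EXPA4 the knockout values all lay below the wild type values. EXPA15 averaged 118.8 ± 11.0 (SD, n = 2) in wild type against 88.2 ± 20.2 in the knockout. Its log2 fold change was -0.38 (SE 0.167, 95% confidence interval -0.75 to -0.02). It had the smallest limma adjusted p of the family, 0.917, with an unadjusted limma p of 0.0425. The log2 fold change was -0.18 without knockout replicate 1 and -0.58 without knockout replicate 2. With 2 arrays in a group, leaving out either one always moves the value by the same amount, in opposite directions. EXPA16 averaged 36.4 ± 2.26 against 25.1 ± 3.32. Its log2 fold change was -0.35 (95% confidence interval -0.72 to 0.01, SE 0.167), and it stayed between -0.44 and -0.27 with 1 array left out.

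EXPA4, the brightest member, averaged 281.3 ± 66.3 (SD, n = 2) in wild type against 219.1 ± 1.41 in the knockout. The log2 fold change was -0.32 (SE 0.166, 95% confidence interval -0.69 to 0.04, limma adjusted p = 0.998). Here too wild type replicate 1 set the size: it read 328.2 while the other arrays lay between 218.1 and 234.4, and without it the log2 fold change was -0.09. Without wild type replicate 2 it was -0.55.

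EXPA8 and EXPA9 had values near 0. EXPA8 averaged 95 ± 23.1 in wild type against 96.3 ± 5.37 in the knockout, and its log2 fold change of 0.03 had a 95% confidence interval of -0.34 to 0.40. EXPA9 averaged 48.7 ± 5.80 against 49.6 ± 5.94, and its log2 fold change of 0.02 had an interval of -0.33 to 0.37. The groups overlapped for both, and both changed sign with 1 array left out. EXPA8 was at -0.18 without wild type replicate 2 and -0.02 without knockout replicate 2, and EXPA9 at -0.07 without wild type replicate 1 or knockout replicate 2. The intervals leave room for log2 changes between -0.34 and 0.40, so equal levels are not shown.

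**Figure D2:**
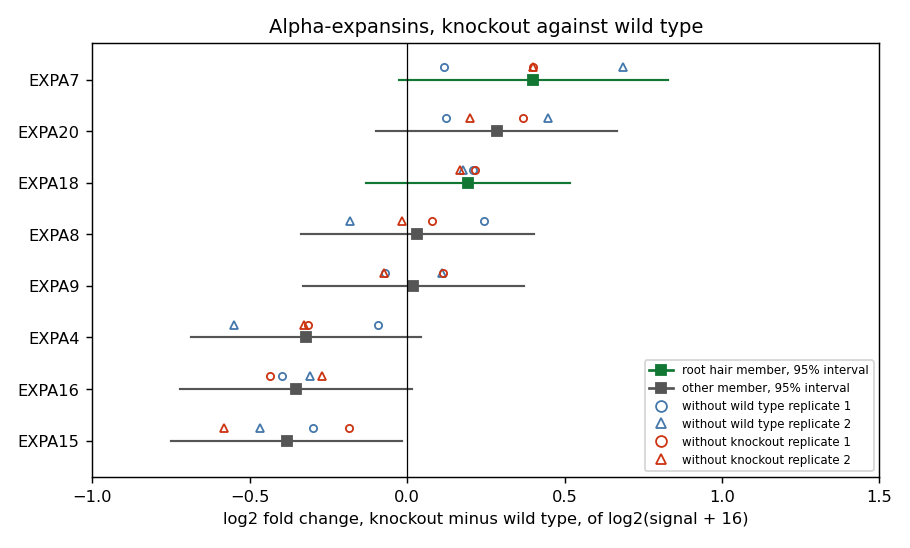
Log2 fold change of the 8 tested alpha-expansins (squares, green for EXPA7 and EXPA18) on the log2(signal + 16) scale, with 95% confidence intervals as lines and, above each line, the value with 1 array left out (open symbols). EXPA7 is highest at 0.40 and EXPA15 lowest at -0.38, and only the interval of EXPA15 leaves out 0.

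The groups did not overlap for 6 of the 8 tested members, 3 higher in the knockout (EXPA7, EXPA18, EXPA20) and 3 lower (EXPA4, EXPA15, EXPA16). Over all tested probe sets this held for 31.9%, with 15% higher and 16.9% lower. The share was larger in the family, but with members running both ways and so few genes it was not tested, and none of the 6 passed the limma test. Some control probe sets also separated the groups. The 25S ribosomal RNA control read 556.1 and 841.1 in wild type against 2196 and 992.3 in the knockout. The ratio of 3' to 5' signal of a control transcript rises when RNA is degraded or incompletely copied. The older actin controls gave ratios of 9.42 and 7.24 in wild type against 5.01 and 4.85 in the knockout, with the 3' signal lower and the 5' signal higher on the knockout arrays. With the newer actin controls the groups overlapped, at 1.83 and 2.51 against 2.49 and 1.9. For GAPDH they overlapped too, at 1.13 and 1.64 against 1.64 and 1.16 (older) and 1.13 and 1.34 against 1.28 and 1.12 (newer). In all of these, wild type replicate 1 lay near knockout replicate 2, and wild type replicate 2 near knockout replicate 1. LHCB4.1, which is no control but a gene of the light-harvesting antenna in green tissue, read 1518.3 and 1567.8 against 2063.8 and 1807.7. For RCA, the other tested gene of green tissue, the groups overlapped, at 2671.7 and 2291.6 against 2429.8 and 2684.9. The part of these controls and of LHCB4.1 in the differences of the alpha-expansins was not tested.

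Wild type replicate 1 was the lowest or the highest of the 4 arrays for 6 of the 8 members, against 51.3% of all tested probe sets. It was lowest for EXPA7, EXPA20 and EXPA9 and highest for EXPA4, EXPA15 and EXPA8. The other arrays were at an extreme for 3 or 4 members each, against 44.2% to 53.4% of all tested probe sets. Without this array the 2 root hair members had a median log2 fold change of 0.16 and the 6 others one of -0.08, with 2 of the 6 above 0.

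**Figure D3:**
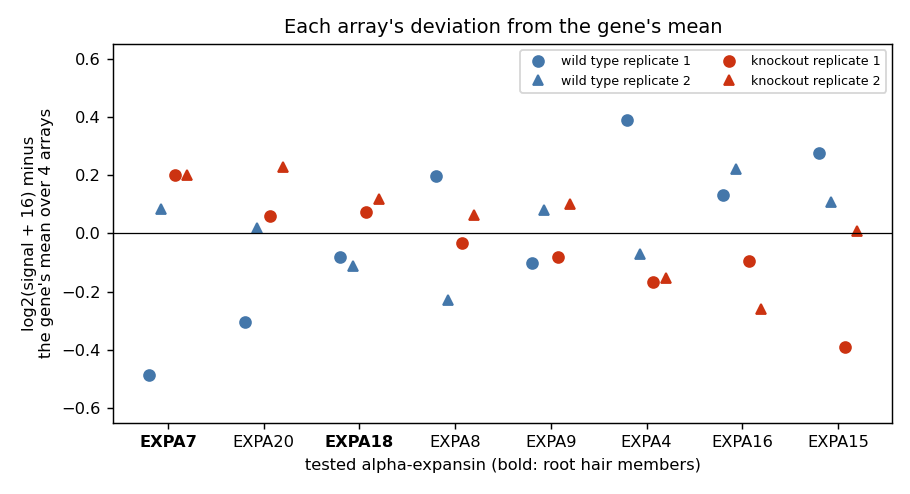
Deviation of each array from the gene's mean over the 4 arrays, on the log2(signal + 16) scale, for the 8 tested alpha-expansins ordered by log2 fold change. Wild type replicate 1 (blue circles) lies lowest for EXPA7 at -0.49 and highest for EXPA4 at 0.39, while the 4 arrays of EXPA18 stay within -0.11 and 0.12.

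The root hair members were then set against the other 6 within each array. The mean log2 level of EXPA7 and EXPA18 minus that of the others was -0.83 and -0.49 in wild type against -0.20 and -0.29 in the knockout. The gap was thus narrower on both knockout arrays, by 0.42 on average. It was narrower by 0.25 without wild type replicate 1 and by 0.59 without wild type replicate 2. Most of the 0.42 came from the root hair pair, whose mean was 0.30 higher in the knockout, while the mean of the others was 0.12 lower. With EXPA18 alone in place of the pair the gap was -0.54 and -0.50 in wild type against -0.17 and -0.24 in the knockout. The smallest p that exact permutation of so few arrays allows is 0.333, and the members were chosen with results known, so no p is given for this gap.

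EXPA7 and EXPA18 did not move as one across the arrays. EXPA7 minus EXPA18 was -0.58 on wild type replicate 1, where EXPA7 alone was low, and 0.02, -0.05 and -0.10 on wild type replicate 2 and the knockout arrays. Other root hair genes could add little. SCN1, which restricts root hair outgrowth to 1 site per cell, read 317.2 and 327.8 in wild type against 269.1 and 335.4 in the knockout, with overlapping groups and a log2 fold change of -0.10. XTH26, a wall enzyme active in root hairs, was below the brightness floor on all arrays, at 8.2 and 2.0 against 2.8 and 1.8. PYK10, the tested gene of the root list, had a log2 fold change of -0.04, and whether it marks roots alone at this stage was not tested. CSLD2, also needed for root hair growth but listed with the cellulose synthases, read 164.4 and 194.2 against 171.9 and 169.6, with overlapping groups. The 43 entries of the root hair list, which leaves out the alpha-expansins, had only SCN1 and XTH26 as named probe sets. The root hair share of the RNA could therefore not be followed further.

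The beta-expansins (EXPB) and expansin-like genes (EXLA, EXLB), the other branches of the superfamily, mostly read lower in the knockout, and none passed the test. Of 9 genes on this list 8 were named on the array and 7 were tested, 1 above and 6 below 0. Their median log2 fold change was -0.23, against -0.015 over all tested probe sets, where 54% lay below 0. The median of the list ran from -0.32 to -0.09 with 1 array left out, and it was -0.09 without wild type replicate 2. Groups did not overlap for 4 of the 7, all lower, against 31.9% of all tested probe sets not overlapping and 16.9% lower. EXPB3 read 365.4 and 286.1 in wild type against 228.9 and 252.8 in the knockout, a log2 fold change of -0.40 (limma adjusted p = 0.788, SE 0.154). EXPB1 read 35.2 and 40.1 against 26.0 and 26.8, a log2 fold change of -0.34. EXLA3 read 19.2 and 33.5 against 18.3 and 16.0, a log2 fold change of -0.33. Only wild type replicate 2 lay above the floor of 19.5, so EXLA3 was tested through that array alone. It is included in the counts of lower genes above, where its place is no support for a fall. EXLA2 was the member above 0, at 0.24, with overlapping groups. With 1 array left out, 4 of the 7 tested genes kept their sign. EXPB2 (-0.53 to 0.12) and EXLA1 (-0.28 to 0.10), both below 0 with all arrays, changed sign, as did EXLA2.

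The XTH genes, whose enzymes cut and rejoin the xyloglucan that tethers wall fibres, held the largest differences among the wall genes examined, though none passed the test. Of 33 genes on the list 10 were named and 7 tested, 4 above and 3 below 0 (5 and 2 after quantile normalization or median centring), with a median log2 fold change of 0.01. The median ran from -0.08 without knockout replicate 1 to 0.12 without knockout replicate 2. XTH19, at 0.01, and XTH33, at -0.02, lay close to 0. XTH16 read 64.8 and 78.9 in wild type against 158.6 and 111.4 in the knockout, a log2 fold change of 0.77 (limma adjusted p = 0.168, SE 0.177). EXGT-A3, also named XTH27, read 510.5 and 503.3 against 675.2 and 808.1, a log2 fold change of 0.53 (limma adjusted p = 0.289, SE 0.139). XTH18 was at -0.42 and XTH20 at -0.16, the first with overlapping groups. The list of cellulose synthases and related genes had 2 tested genes, neither of them named as a cellulose synthase (CESA). CSLD2, needed for root hair growth, was at -0.06 and COB, which orients wall expansion in roots, at -0.04. In green tissue RCA was at 0.05 and LHCB4.1 at 0.32.

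**Figure D4:**
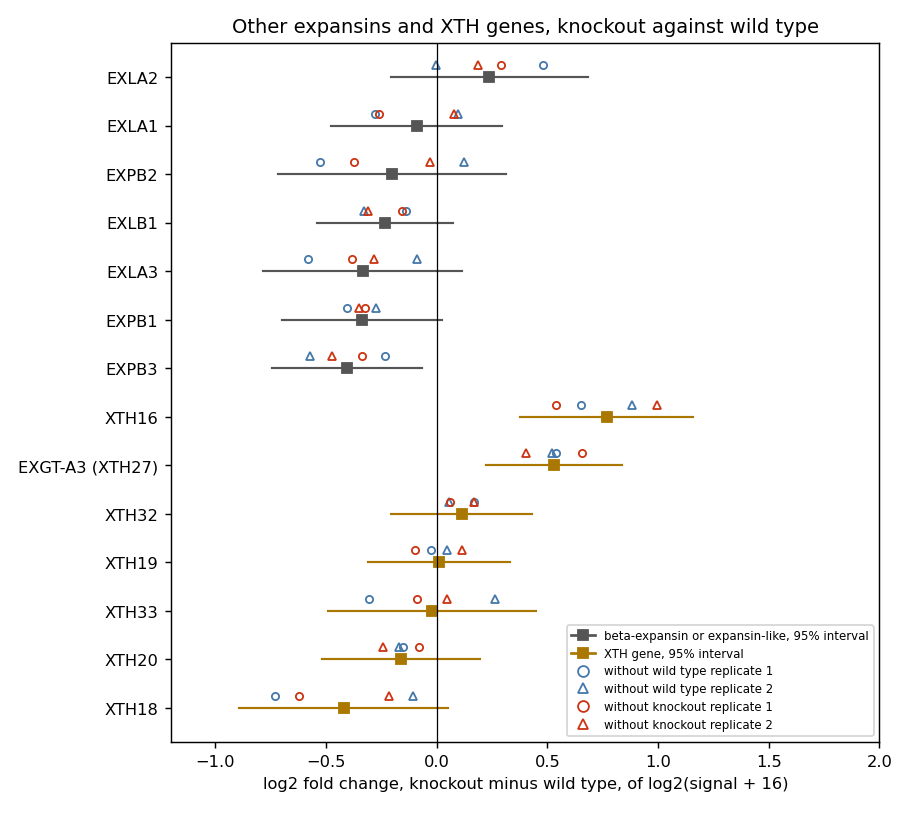
Log2 fold change on the log2(signal + 16) scale, with 95% confidence intervals, of the 7 tested beta-expansins and expansin-like genes (grey) and the 7 tested XTH genes (ochre), with the value when 1 array is left out as open symbols. Of the grey genes 6 lie below 0, and XTH16 at 0.77 and EXGT-A3 at 0.53 lie highest, none past the adjusted threshold.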

How the data were processed

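Total RNA was profiled on 4 Affymetrix ATH1 arrays. The deposited values are linear intensities made by the authors with MAS5, per the submitters' processing notes. No source used here gives its version, settings or detection calls. The 64 control probe sets were set aside. Signals were used as deposited, as log2(signal + 16), so a fold change understates that of dim genes. Probe sets with a mean below the 30th percentile were left out. The comparison used limma 3.58.1 (R 4.3.3) with lmFit and eBayes, an intensity trend, two-sided tests and 8.82 prior degrees of freedom. The procedure was run on simulated data whose noise was drawn from the same fitted model. That run checks the code and not whether the model holds for these arrays. The number of arrays, 2 per group, limits the precision.

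Gene names came from the platform annotation, which can be old, updated through gene numbers against RefSeq TAIR10.1. No source used here gives the build of the array design, so neither coordinates nor sequences are shown. All members are named. From the other lists up to 4 tested genes with the largest change are named, and others only where a statement turns on them, chosen after their values were seen. Of 126 list genes, 24 were named on the array and 20 tested. Members and lists were chosen with earlier results of these data known. The groups share replicate numbers, but nothing says that these mark a batch. The alternatives were median centring, quantile normalization, a pseudocount of 1 or 64, filters at the 10th and 50th percentiles or none, no trend, the replicate block, each array left out, a threshold of 0.1, and unique probe sets only.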

Additional observations from a re-analysis of the deposited data

How the results depend on the processing

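No alpha-expansin passed the limma test under any of the 16 alternatives, and no value of EXPA7 or EXPA18 changed sign. The log2 fold change of EXPA7 ran from 0.12 to 0.69 (limma adjusted p 0.222 to 1) over 14 alternatives, as the filter at the 50th percentile left it out, and that of EXPA18 from 0.11 to 0.24 (0.764 to 1) over 15. The median of the other tested members ran from -0.25 to -0.05. EXPA8 (0.25 to -0.18) and EXPA9 (0.11 to -0.07) changed sign with 1 array left out. The number of probe sets passing among all tested moved more: it was 51, 0 with no filter, 89 with the replicate block, and 20 to 87 with 1 array left out (87 without wild type replicate 1, 23 and 20 without knockout replicate 1 and 2). The cause of these moves was not tested. Replicate differences in the 2 groups correlated at -0.301 across probe sets, which does not tell whether the numbers mark pairs of arrays. A crossed pairing, added after seeing the data, gave 195 probe sets and 0 alpha-expansins. The block changed no call of a member. With 2 arrays a group, the confidence intervals given limit what changes could be seen, and EXPA21 and EXPA24 were too dim to test.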
